A study of Homo sapiens with 18 samples.

Results

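Claudins and their partners at the tight junction were followed in pancreatic cancer cells in which KMT2C or KMT2D had been targeted. The 9 genes were CLDN1, CLDN3, CLDN4, CLDN7, CLDN12, CLDN18, OCLN, F11R and TJP1, matched by symbol among the 63677 gene identifiers counted in each library. All 9 passed the filter on low counts, although CLDN18 did so with at most 16 counts in a library. CLDN1 had been picked because it was higher with KMT2D siRNA in these same libraries. Its values in any siRNA comparison that uses the KMT2D siRNA libraries are therefore given as a description, with no test. Tests of CLDN1 with KMT2C siRNA against control share the control libraries of that choice, so they are not independent of it.

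Established human lines of pancreatic ductal adenocarcinoma were used, 3 in number (PANC1, COLO357 and SUIT2), 48 h after transfection with small interfering RNAs (siRNAs). In each line, 2 libraries had an siRNA against KMT2D (siRNA1 and siRNA2), 3 had an siRNA against KMT2C (siRNA1, siRNA2 and siRNA3) and 1 had a control siRNA, which makes 6, 9 and 3 libraries and 18 in all. KMT2C and KMT2D encode histone H3 methyltransferases that act mainly at enhancers, and the labels give no edited gene in any line. The values are counts of read pairs per gene from ribosome-depleted RNA, shown as CPM, counts scaled to the effective library size.

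Tight junctions seal the space between neighbouring epithelial cells near their apical edge. Claudins span the membrane and form the strands, and the claudins a cell makes set which ions pass between cells. Occludin (OCLN) and junctional adhesion molecule A (F11R) span the membrane beside them, and ZO-1 (TJP1) ties the strands to the actin cytoskeleton from inside. Ductal epithelium of the pancreas carries such junctions, and claudins, CLDN4 and CLDN18 among them, are studied as surface antigens of pancreatic tumours.

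Gene counts summed to between 14205640 and 32115894 per library. KMT2D mRNA lay at 34.8% to 84.7% of the control of the same line with KMT2D siRNA. KMT2C mRNA lay at 43.2% to 82.1% of control in 8 of the 9 KMT2C siRNA libraries, and at 115.7% in the library labelled PANC1 KMT2C siRNA2, where KMT2D mRNA was at 371.7%. In the other 8 KMT2C siRNA libraries KMT2D mRNA was at 99.1% to 207.5% of control, and with KMT2D siRNA2 KMT2C mRNA was at 273.7%, 103.3% and 149.7% in PANC1, COLO357 and SUIT2. Calls made with KMT2C siRNA2 are also given without the library labelled PANC1 KMT2C siRNA2. Pairs in no annotated feature made up 7.49% to 30.36% of the read pairs, above 20% in 3 KMT2C siRNA libraries. The 8 ductal epithelial markers (4 keratins, EPCAM, CDH1, MUC1 and SOX9) summed to 870.6 to 1300 CPM in PANC1, 4352 to 5508 CPM in COLO357 and 3011 to 6889 CPM in SUIT2. The 8 fibroblast markers summed to 52.2 to 179.8 CPM in PANC1, 23.6 to 152 CPM in COLO357 and 1.23 to 5.33 CPM in SUIT2, and of these COL1A1 alone exceeded 2 CPM. The 8 leukocyte and the 8 endothelial markers summed to at most 9.82 and 28.6 CPM, and MS4A1 and PECAM1 were at 0 in all 18 libraries. Of the endothelial markers CDH5 reached 27.9 CPM and ESAM 17 CPM, and of the leukocyte markers LYZ reached 8.3 CPM. In RNA from whole cultures, fewer cells that express a gene and less RNA per cell cannot be told apart.

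Per kilobase of exon, the only scale on which levels of different genes are compared here, TJP1 had the highest median of the 9 genes in each line. The length is that of all GENCODE v29 exons of a gene merged (GRCh38, not the authors' build), whichever transcript is expressed. The orders are therefore approximate, for F11R also because it shares 36.6% of this length with another gene. Its median over the 6 libraries of a line was 19.1, 36.5 and 44.1 CPM per kilobase in PANC1, COLO357 and SUIT2. In PANC1, the medians of CLDN1, OCLN, CLDN12 and F11R came next, between 8.53 and 9.80 CPM per kilobase, and the ranges of these 4 genes overlapped. In COLO357, CLDN1 (30.4), CLDN7 (26.4) and F11R (21.4 CPM per kilobase) followed TJP1, while OCLN was at 1.49. In SUIT2, the order after TJP1 was F11R (22.9), CLDN1 (19.8), CLDN12 (10.4), CLDN4 (10.02) and OCLN (7.46 CPM per kilobase). CLDN3 reached at most 4.88 and CLDN18 at most 0.156 CPM per kilobase in any of the 18 libraries.

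**Figure D1:**
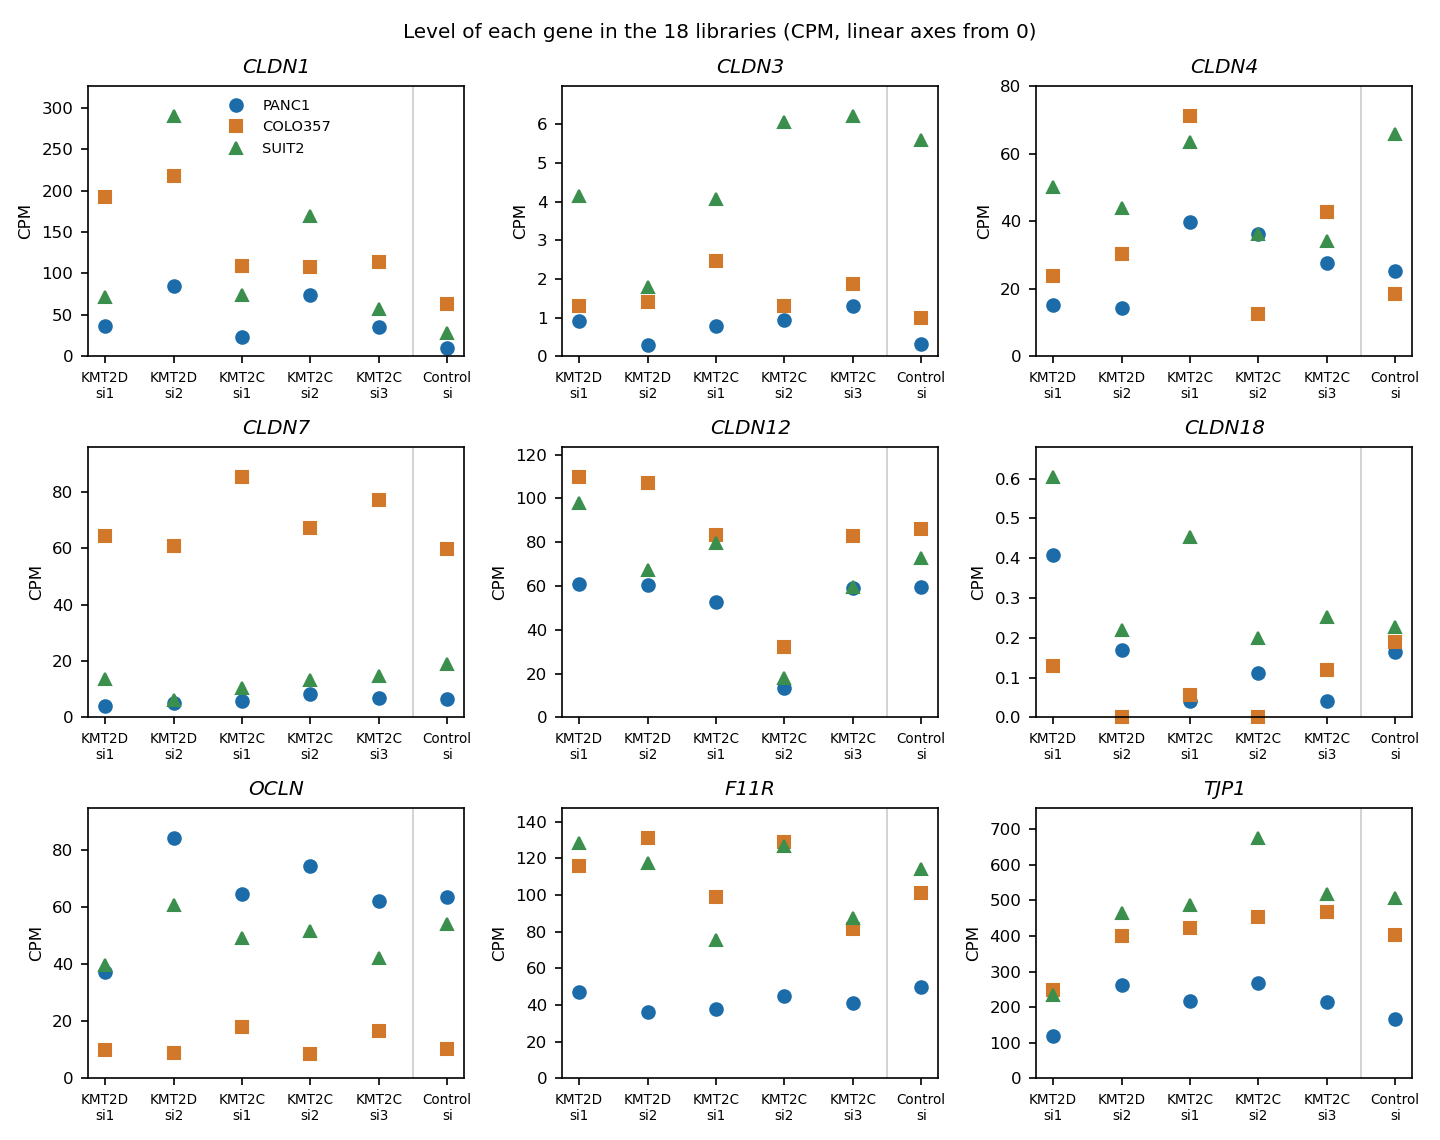
Level of each of the 9 genes in CPM (vertical axes, linear from 0) for each siRNA (horizontal axes; si1 is siRNA1, control at the right), with one point per library and the cell line given by colour and shape. CLDN1 points of every siRNA stand above the control of the same line, CLDN12 is low with KMT2C siRNA2 in all 3 lines, and TJP1 is low with KMT2D siRNA1.

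CLDN1 (ENSG00000163347) encodes claudin-1, a barrier-forming claudin. In PANC1, it was at 36.7 and 85.2 CPM with KMT2D siRNA1 and siRNA2, against 9.72 CPM with control siRNA. In COLO357, it was at 191.9 and 218.1 CPM with KMT2D siRNA1 and siRNA2, against 63.5 CPM with control siRNA. In SUIT2, it was at 71.2 and 289.9 CPM with KMT2D siRNA1 and siRNA2, against 27.9 CPM with control siRNA. All 6 KMT2D siRNA libraries thus stood above the control of their line, by 2.55-fold (SUIT2, siRNA1) to 10.4-fold (SUIT2, siRNA2). Both extremes came from the same line, and siRNA2 gave the higher value in each line. The siRNA2 libraries also kept more KMT2D mRNA than the siRNA1 libraries of their line. In SUIT2 the remaining KMT2D mRNA, relative to control, came to 34.8% for siRNA1 and 65.8% for siRNA2. The same pair of values was 79.9% against 84.7% for PANC1, and 43.5% against 45.5% for COLO357. The part of KMT2D level in the CLDN1 folds was not tested. The pooled CLDN1 difference from control was 2.27 on the log2 scale (SE 0.506), a 4.83-fold higher level. Leaving out any one library kept this difference between 1.98 and 2.72. In the whole table, 7.1% of the genes tested also stood above the control in all 6 KMT2D siRNA libraries.

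With KMT2C siRNA, CLDN1 was above control in 9 of 9 libraries as well. In PANC1, it was at 23.3, 74.2 and 35.2 CPM with KMT2C siRNA1, siRNA2 and siRNA3, against the same 9.72 CPM with control siRNA. In COLO357, it was at 108.5, 107.8 and 114.0 CPM with KMT2C siRNA1, siRNA2 and siRNA3, against 63.5 CPM with control siRNA. In SUIT2, it was at 73.5, 169.4 and 56.8 CPM with KMT2C siRNA1, siRNA2 and siRNA3, against 27.9 CPM with control siRNA. The folds ran from 1.70 (COLO357, siRNA2) to 7.63 (PANC1, siRNA2), and the next highest was 6.07 (SUIT2, siRNA2). In the PANC1 siRNA2 library KMT2C mRNA was at 115.7% and KMT2D mRNA at 371.7% of control. The part of KMT2C or KMT2D level in these folds was not tested. Of all genes tested, 3.72% stood above the control in all 9 KMT2C siRNA libraries.

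The pooled CLDN1 difference with KMT2C siRNA was 1.54 on the log2 scale (SE 0.471, 2.90-fold) and was not called, with an adjusted p of 0.289 by edgeR's quasi-likelihood test (unadjusted p = 0.00473). This comparison uses the same control libraries as the one CLDN1 was picked on. DESeq2 gave an adjusted p of 0.014 and the edgeR fit without the low-count filter 5.81e-10, within a range of 5.81e-10 to 1 over all alternatives. Without the library labelled PANC1 KMT2C siRNA2 the value was 1.35 (edgeR adjusted p = 0.321). None of the 9 members was called with KMT2C siRNA (1 had an unadjusted p under 0.05, and 1 was called by DESeq2, CLDN1 each time), against 0.281% of all genes tested.

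Taken one siRNA at a time, the CLDN1 difference from control passed the threshold with KMT2C siRNA2, at 2.15 on the log2 scale (SE 0.384, edgeR adjusted p = 0.00418, above control in 3 of 3 lines). The control libraries are again those CLDN1 was picked on, so this test is not independent of that choice. With KMT2C siRNA1 and siRNA3 the differences were 1.10 (SE 0.371, edgeR adjusted p = 0.227) and 1.21 (SE 0.372, edgeR adjusted p = 0.228). The siRNA2 call was lost when PANC1 (edgeR adjusted p = 0.236) or SUIT2 (0.0924) was left out. Without the library labelled PANC1 KMT2C siRNA2 the value was 1.87 (edgeR adjusted p = 0.0303), and over all alternatives the adjusted p ran from 6.63e-26 to 0.236. The gap between KMT2C siRNA2 and the mean of the other KMT2C siRNAs, a contrast chosen after the data were seen, was 1.00 for CLDN1 (edgeR adjusted p = 0.083). It uses no control library. The gap was 0.71 (edgeR adjusted p = 0.401) without the library labelled PANC1 KMT2C siRNA2. It passed by DESeq2 (0.0118), without COLO357 (1.36, edgeR adjusted p = 0.000367) and without the COLO357 KMT2C siRNA2 library (1.39, edgeR adjusted p = 0.00318), in a range of 1.94e-08 to 0.642 over all alternatives. Without COLO357, siRNA1 and siRNA3 passed as well (1.33 and 1.46, edgeR adjusted p = 0.00596 and 0.00632), as they did without the COLO357 KMT2C siRNA2 library (0.0452 and 0.0391). Over all alternatives the adjusted p ran from 1.5e-06 to 0.727 for siRNA1 and from 1.51e-07 to 1 for siRNA3.

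Between the KMT2D siRNAs, the CLDN1 difference of siRNA2 minus siRNA1 came to 1.15 (SE 0.369), given without a test because CLDN1 was picked on these libraries. It was 1.63 without COLO357 and 0.69 without SUIT2.

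**Figure D2:**
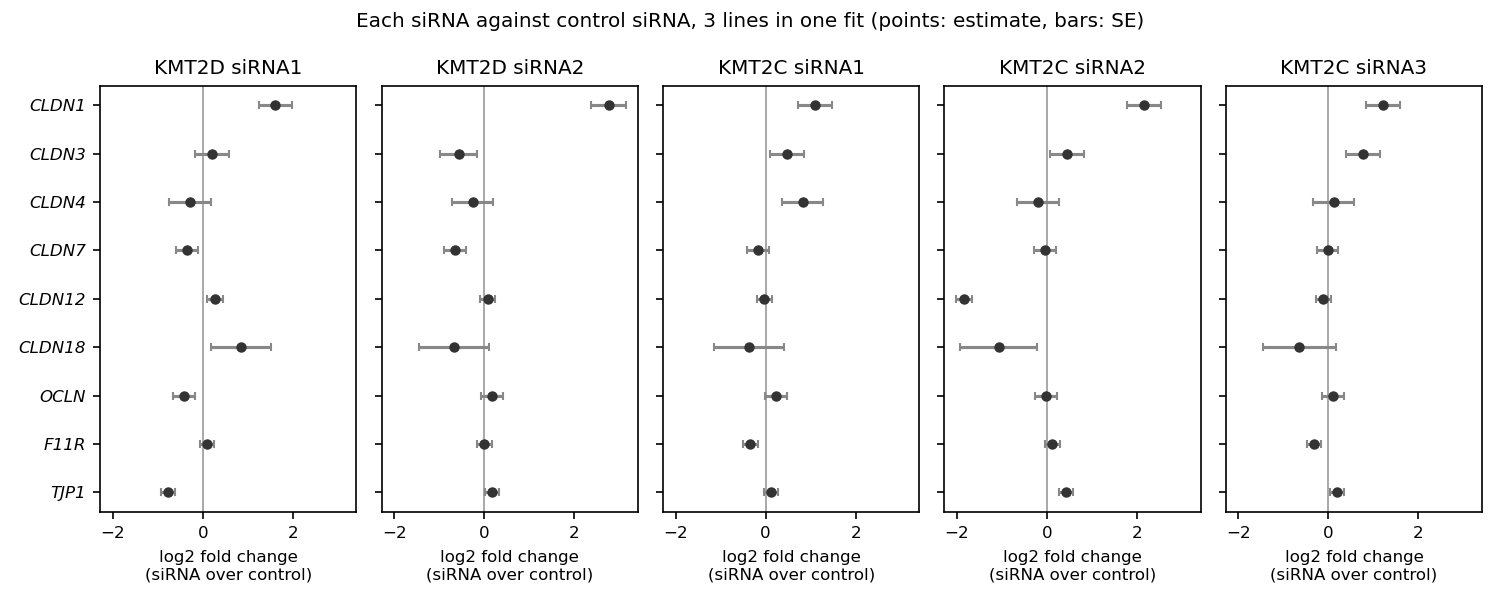
Log2 fold change of each gene (vertical) for each of the 5 siRNAs over control siRNA (horizontal axes), estimated over the 3 lines in one fit, with bars of 1 SE. CLDN1 lies right of 0 with every siRNA, between 1.10 and 2.76, while CLDN12 at -1.84 with KMT2C siRNA2 and TJP1 at -0.77 with KMT2D siRNA1 stand left of 0.

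The RefSeq promoter window of CLDN1 (GRCh38.p14, chr3:190322397-190322696, minus strand, 250 bases before to 50 after the start) is shown because CLDN1 is the member that was above control with all 5 siRNAs in every line. Capitals would mark the E-box CAGGTG, read on both strands (CACCTG on the other), which SNAI and ZEB repressors bind, or the palindrome AACCGGTT bound by GRHL factors. The CLDN1 window holds neither.
CLDN1: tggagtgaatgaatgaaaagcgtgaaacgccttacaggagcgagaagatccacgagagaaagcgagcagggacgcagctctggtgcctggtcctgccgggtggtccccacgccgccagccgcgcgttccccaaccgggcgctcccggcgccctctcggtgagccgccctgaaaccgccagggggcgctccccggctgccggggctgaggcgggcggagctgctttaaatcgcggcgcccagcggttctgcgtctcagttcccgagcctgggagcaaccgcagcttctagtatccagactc
CAGGTG in either direction occurs in 20.593% of the 35114 RefSeq windows of this length and AACCGGTT in 0.134%. Windows were found for 8 of the 9 members (F11R is named only), and no member window holds AACCGGTT.

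CLDN12 (ENSG00000157224), an atypical claudin that lacks the usual carboxy-terminal motif for binding ZO proteins, fell with one siRNA of the 5. With KMT2C siRNA2 it was at 13.4 CPM in PANC1, 32.3 CPM in COLO357 and 17.9 CPM in SUIT2, against 59.7, 86.3 and 72.9 CPM with control siRNA. These are 22.5%, 37.4% and 24.6% of the control level. The same 3 libraries were also the lowest of their lines for CLDN12.

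With KMT2C siRNA1, CLDN12 was at 52.8, 83.4 and 79.6 CPM in PANC1, COLO357 and SUIT2, and with siRNA3 at 59.3, 82.7 and 59.5 CPM, which is 81.6% to 109.2% of control over both. With KMT2D siRNA it lay between 92.5% and 134.5% of control. The fall with KMT2C siRNA2 was -1.84 on the log2 scale (SE 0.175, edgeR adjusted p = 3.17e-07, below control in 3 of 3 lines), in a comparison that called 5.81% of all genes, and KMT2C siRNA2 minus the mean of siRNA1 and siRNA3 was -1.77 (SE 0.16, edgeR adjusted p = 1.44e-07), where 5.51% were called. With siRNA1 and siRNA3 alone CLDN12 differed from control by -0.03 and -0.12 (edgeR adjusted p = 0.977 and 0.863). Pooled over the 3 KMT2C siRNAs, the difference was -0.46 (SE 0.383, edgeR adjusted p = 0.768).

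The fall held without the library labelled PANC1 KMT2C siRNA2, at -1.74 (edgeR adjusted p = 1.04e-05), and the adjusted p ran from 2.12e-22 to 0.0004 over all alternatives. KMT2C mRNA itself was at 115.7%, 62.6% and 65.7% of control with siRNA2 in PANC1, COLO357 and SUIT2, and at 62.8%, 48.5% and 43.2% with siRNA1. The sums of the 8 epithelial markers with siRNA2 were 870.6, 4827 and 3613 CPM in PANC1, COLO357 and SUIT2. With control siRNA they were 1189, 5338 and 6889 CPM. In SUIT2 the sums with KMT2C siRNA1 and siRNA3 were 3011 and 4850 CPM. With siRNA2, 0 of the 8 markers were called by edgeR and 3 had an unadjusted p under 0.05, where 5.81% of all genes were called. The part of KMT2C level and of these markers in the CLDN12 result was not tested. At most 5.50% of the CLDN12 exon length is shared with any one other gene of GENCODE v29.

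The CLDN12 window (GRCh38.p14, chr7:90403211-90403510, plus strand) is shown because CLDN12 had the lowest adjusted p of the members in any siRNA comparison. It holds neither motif.
CLDN12: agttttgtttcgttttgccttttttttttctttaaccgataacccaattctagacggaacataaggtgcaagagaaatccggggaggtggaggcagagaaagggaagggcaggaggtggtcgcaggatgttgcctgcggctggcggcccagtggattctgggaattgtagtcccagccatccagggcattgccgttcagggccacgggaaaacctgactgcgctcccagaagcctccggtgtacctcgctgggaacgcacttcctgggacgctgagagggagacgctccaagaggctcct

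TJP1 (ENSG00000104067) encodes the scaffold ZO-1 and differed between the KMT2D siRNAs. With KMT2D siRNA1 it was at 119.5, 247.2 and 235.1 CPM in PANC1, COLO357 and SUIT2, against 166.5, 401.6 and 505.7 CPM with control siRNA. With KMT2D siRNA2 it was at 263.2, 400.6 and 464.4 CPM in the same lines. KMT2D siRNA1 thus gave the lowest TJP1 value of each line, at 71.8%, 61.5% and 46.5% of control, while siRNA2 lay between 91.8% and 158% of control.

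TJP1 fell with KMT2D siRNA1 by 0.77 on the log2 scale (SE 0.154, edgeR adjusted p = 0.00395, below control in 3 of 3 lines), and it was the one call among the 8 members other than CLDN1, where 4.02% of all genes were called. With KMT2D siRNA2 the difference was 0.18 (SE 0.153, edgeR adjusted p = 0.551). The KMT2D siRNAs themselves differed, siRNA2 minus siRNA1 being 0.94 (SE 0.154, edgeR adjusted p = 0.000212, higher in 3 of 3 lines), where 11.3% of all genes were called. KMT2D mRNA was at 79.9%, 43.5% and 34.8% of control with siRNA1 in PANC1, COLO357 and SUIT2, and at 84.7%, 45.5% and 65.8% with siRNA2. Of the 8 epithelial markers, KRT7 fell with KMT2D siRNA1 (-0.96, edgeR adjusted p = 0.0221) and the others were not called. Their sums with KMT2D siRNA1 were 1163, 4377 and 5927 CPM in PANC1, COLO357 and SUIT2, against 1189, 5338 and 6889 CPM with control siRNA. For KMT2D siRNA2 minus siRNA1, 2 of the 8 markers were called higher and 0 lower, where 11.3% of all genes were called. The part of KMT2D level and of these markers in the TJP1 result was not tested. The call against control was lost without SUIT2 (-0.59, edgeR adjusted p = 0.199) and without the SUIT2 KMT2D siRNA1 library alone (-0.67, edgeR adjusted p = 0.0668), with a range of 0.000194 to 0.199 over all alternatives.

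Pooled over both KMT2D siRNAs, TJP1 differed from control by -0.22 (SE 0.227, edgeR adjusted p = 0.755). The value was -0.76 (edgeR adjusted p = 0.0136) without siRNA2 and 0.19 (0.61) without siRNA1, in a range of 0.0136 to 1 over all alternatives. With KMT2C siRNA, TJP1 was at 96.4% to 160.4% of control in the 9 libraries, a pooled difference of 0.25 (SE 0.218, edgeR adjusted p = 0.779).

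OCLN (ENSG00000197822), the occludin gene, was also lower with KMT2D siRNA1 than with siRNA2 in PANC1 and SUIT2. It was at 37.0 and 84.1 CPM with KMT2D siRNA1 and siRNA2 in PANC1, against 63.5 CPM with control siRNA, and at 39.8 and 60.8 CPM in SUIT2, against 54.0 CPM with control siRNA. In COLO357 the values were 9.93 and 8.93 CPM with KMT2D siRNA1 and siRNA2, against 10.3 CPM with control siRNA. The difference between the KMT2D siRNAs was 0.59 (SE 0.245, edgeR adjusted p = 0.132) and not called. It was called without COLO357 (0.88, edgeR adjusted p = 0.00583) and without the COLO357 KMT2D siRNA2 library alone (0.84, edgeR adjusted p = 0.0241), in a range of 0.00583 to 0.699 over all alternatives.

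CLDN7 (ENSG00000181885), a claudin of many simple epithelia, was below control with KMT2D siRNA in 4 of 6 libraries. In SUIT2 it was at 13.6 and 6.08 CPM with KMT2D siRNA1 and siRNA2, against 19.0 CPM with control siRNA, and in PANC1 at 3.90 and 5.07 CPM, against 6.59 CPM with control siRNA. In COLO357 it was at 64.5 and 60.8 CPM with KMT2D siRNA1 and siRNA2, against 59.6 CPM with control siRNA. The pooled difference was -0.50 (SE 0.221, edgeR adjusted p = 0.349), and the KMT2D effect in COLO357 minus that in SUIT2 was 1.02 (SE 0.541, edgeR adjusted p = 1).

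The remaining members, CLDN4, CLDN3, F11R and CLDN18, were not called with any siRNA. CLDN4, claudin-4, was at 56.7% to 165.2% of the line's control with KMT2D siRNA and at 51.9% to 388.3% with KMT2C siRNA. The highest value, 71.2 CPM in COLO357 with KMT2C siRNA1, stood against 12.4 CPM with KMT2C siRNA2 and 18.3 CPM with control siRNA. CLDN3, claudin-3, was counted 7 to 44 times per library in PANC1 and COLO357 and 41 to 123 times in SUIT2. It was above control in 8 of 9 KMT2C siRNA libraries (median 1.88-fold) and in 3 of 6 KMT2D siRNA libraries. F11R lay between 65.9% and 129.5% of control over all 15 libraries, below control in 7 of 9 with KMT2C siRNA and in 2 of 6 with KMT2D siRNA. CLDN18, a claudin whose gene encodes a stomach form and a lung form, had 0 to 16 counts and was below control in 7 of 9 KMT2C siRNA and 3 of 6 KMT2D siRNA libraries. The gene counts do not separate these forms.

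Pooled by target, 0 of the 8 members other than CLDN1 were called by edgeR with KMT2D siRNA against control, where 1.2% of all genes were called, 1 of them (CLDN7) had an unadjusted p under 0.05 and DESeq2 called 0 as well. Their log2 fold changes ran from -0.50 to 0.27. Between KMT2C and KMT2D siRNA, 0 of these 8 were called by edgeR or DESeq2, where 5.17% of all genes were called by edgeR, and 3 had an unadjusted p under 0.05. These were CLDN3 (0.70, SE 0.277, edgeR adjusted p = 0.137), CLDN7 (0.42, SE 0.169, 0.144) and TJP1 (0.47, SE 0.172, 0.110), each with a higher estimate for KMT2C siRNA than for KMT2D siRNA. TJP1 passed without KMT2D siRNA2 in all lines (1.01, edgeR adjusted p = 0.000316) and without the PANC1 KMT2D siRNA2 library alone (0.67, 0.0199), in a range of 0.000316 to 1 over all alternatives. CLDN1 was lower with KMT2C siRNA than with KMT2D siRNA, by -0.74 (SE 0.331), given without a test. The median log2 fold change over the 9 members was -0.10 with KMT2D siRNA and 0.11 with KMT2C siRNA, against 0.02 and 0.00 over all genes tested.

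Among single siRNAs, KMT2D siRNA2 had 0 calls by edgeR and by DESeq2 among the 8 members other than CLDN1 (1 with an unadjusted p under 0.05), against 8.92% of all genes. KMT2C siRNA1 and siRNA3 each had 0 calls by edgeR among the 9 members (1 with an unadjusted p under 0.05, and 1 called by DESeq2, CLDN1 each time), against 1.2% and 0.623% of all genes. These CLDN1 results use the control libraries it was picked on and are not independent of that choice.

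Within single lines, where the fit takes the spread of the lone control library from the other groups, none of the members tested was called by edgeR, the one tool run for this fit. With KMT2D siRNA, 0, 0 and 1 of the 8 members other than CLDN1 had an unadjusted p under 0.05 in PANC1, COLO357 and SUIT2, where 0%, 0% and 0.038% of all genes were called. With KMT2C siRNA, 2, 0 and 0 of the 9 had one, where 0%, 0% and 0.00476% of all genes were called. By the interaction term, 0 of the 8 members other than CLDN1 for KMT2D siRNA and 0 of the 9 for KMT2C siRNA were called between any pair of lines (0 with an unadjusted p under 0.05, and 0% of all genes called). Such a fit has 1 control library per line, and the SE of the CLDN1 interaction with KMT2C siRNA, PANC1 minus COLO357, was 1.10 on a difference of 1.39.

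Over 6 libraries a line, with the target in the fit, 6 of the 9 differed between PANC1 and COLO357, where 66.8% of all genes were called. OCLN was higher in PANC1, and CLDN1, CLDN3, CLDN7, F11R and TJP1 were lower. Between PANC1 and SUIT2, 6 of the 9 were lower in PANC1 and none was called higher, where 59.3% of all genes were called in either direction and 29.5% lower. OCLN was called higher in PANC1 than in SUIT2 without the PANC1 KMT2D siRNA1 library (0.47, edgeR adjusted p = 0.0412) or the SUIT2 KMT2D siRNA2 library (0.48, 0.0435). CLDN12, not called between PANC1 and COLO357, was called lower in PANC1 by DESeq2 (-0.76, DESeq2 adjusted p = 0.0325) and without KMT2C siRNA2 in all lines (-0.69, edgeR adjusted p = 0.000132). Between COLO357 and SUIT2, CLDN7 was higher and CLDN3, CLDN18 and OCLN were lower in COLO357, where 59.7% of all genes were called.

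CLDN7 set COLO357 apart. It was at 3.90 to 8.26 CPM in PANC1 (median 6.19) and at 59.6 to 85.3 CPM in COLO357 (median 65.8), and it reached 6.08 to 19.0 CPM in SUIT2 (median 13.4). The COLO357 libraries overlapped neither of the other lines. CLDN7 was lower in PANC1 than in COLO357 by -3.54 (SE 0.2, 11.6-fold, edgeR adjusted p = 4.52e-13), and higher in COLO357 than in SUIT2 by 2.45 (SE 0.19, 5.47-fold, edgeR adjusted p = 1.81e-10). In GENCODE v29, 10.8% of the CLDN7 exon length is shared with another gene on the same strand (ENSG00000262302).

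The downstream of the 2 RefSeq windows of CLDN7 (GRCh38.p14, chr17:7262429-7262728, minus strand) is shown because CLDN7 had the largest estimate among the members in any of the line comparisons and this window has 5 matches to CAGGTG in either direction, in capitals, the highest number among the 14 member windows. The other CLDN7 window has none. These matches describe the letters only, and how many of all RefSeq windows hold 5 was not counted.
CLDN7: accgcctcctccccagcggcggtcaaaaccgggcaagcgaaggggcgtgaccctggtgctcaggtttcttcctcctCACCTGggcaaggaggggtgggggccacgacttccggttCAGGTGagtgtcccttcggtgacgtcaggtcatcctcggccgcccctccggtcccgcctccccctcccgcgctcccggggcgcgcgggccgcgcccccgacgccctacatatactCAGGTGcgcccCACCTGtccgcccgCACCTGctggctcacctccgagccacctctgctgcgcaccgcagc

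OCLN was at 37.0 to 84.1 CPM in PANC1 (median 64.0) and at 8.35 to 17.9 CPM in COLO357 (median 10.1), and SUIT2 held 39.8 to 60.8 CPM (median 50.4). COLO357 lay below every library of both other lines. The difference was 2.44 for PANC1 minus COLO357 (SE 0.209, 5.42-fold, edgeR adjusted p = 6.45e-10) and -2.07 for COLO357 minus SUIT2 (SE 0.207, edgeR adjusted p = 1.27e-08). The pseudogene OCLNP1 (ENSG00000230847), looked up after these values were seen, had 121 to 201 counts in COLO357 and 0 to 7 in PANC1 and SUIT2, while OCLN had 200 to 319 counts in COLO357. The sources used here do not say how read pairs were split between the copies, so the OCLN level in COLO357 is uncertain.

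PANC1 was low for most other members. F11R was lower in PANC1 than in COLO357 by -1.35 (SE 0.147, edgeR adjusted p = 3.38e-08) and than in SUIT2 by -1.33 (SE 0.147, edgeR adjusted p = 5.75e-08), at 36.3 to 49.5 CPM in PANC1 against 81.3 to 131.0 and 75.2 to 128.4 CPM. In GENCODE v29, F11R shares 36.6% of its exon length with ENSG00000270149 on the same strand, so its counts may leave out read pairs assigned to both. TJP1 was lower in PANC1 by -0.93 (COLO357) and -1.19 (SUIT2), CLDN1 by -1.70 and -1.35, and CLDN3 by -1.06 and -2.65, all with edgeR adjusted p of 0.00511 or less.

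CLDN3 was also lower in COLO357 than in SUIT2, by -1.59 (SE 0.289, edgeR adjusted p = 5.74e-05). CLDN4 was lower in PANC1 than in SUIT2 by -0.99 (SE 0.336, edgeR adjusted p = 0.0164), a call lost without KMT2D siRNA1 (0.0951), without KMT2D siRNA2 (0.0745) and without the SUIT2 control library (0.0624), in a range of 1.85e-07 to 0.0951. CLDN18 was lower in COLO357 than in SUIT2 by -1.98 (edgeR adjusted p = 0.0077) on 0 to 4 against 3 to 16 counts.

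**Figure D3:**
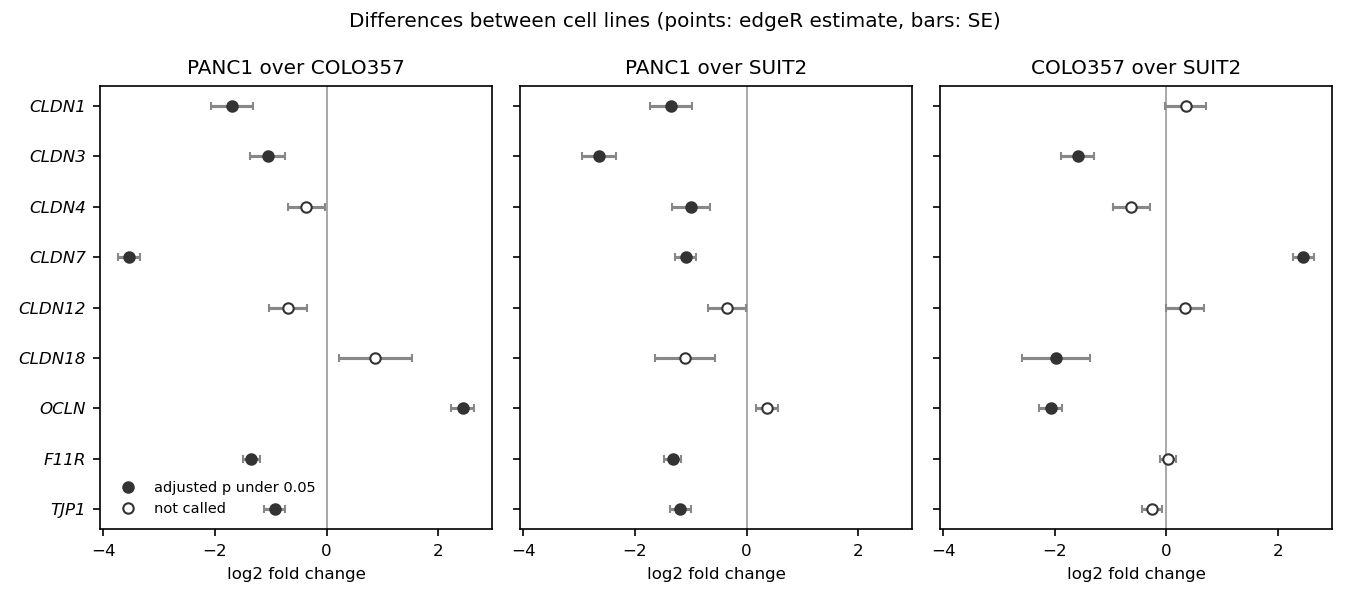
Log2 fold change of each gene (vertical) between cell lines (horizontal axes), from 6 libraries per line, with bars of 1 SE. Filled points have an adjusted p under 0.05 and open points do not. CLDN7 lies at -3.54 for PANC1 over COLO357 and OCLN at 2.44.

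The epithelial marker sums were lower in PANC1 too, with no overlap with either other line, and their part in the line differences was not tested. Of 12 other membrane proteins of tight junctions, 3 were higher and 9 lower in PANC1 than in COLO357, and 2 were higher and 9 lower in PANC1 than in SUIT2. Over all 21028 genes tested, 6746 were higher and 7298 lower in PANC1 than in COLO357 (66.8% called), and 6265 were higher and 6210 lower in PANC1 than in SUIT2 (59.3%). Of 22 plaque and polarity genes, 7 were higher and 8 lower in PANC1 than in COLO357, and 4 were higher and 15 lower in PANC1 than in SUIT2, so that the share called against COLO357 was near that over all genes. Of the membrane proteins, CRB3, an apical polarity protein, was at 0 to 0.166 CPM in PANC1, against 6.54 to 15.6 in COLO357 and 3.22 to 8.19 in SUIT2. Of the plaque genes, TJP3, which encodes ZO-3, was at 0.0822 to 0.555 CPM in PANC1, against 7.91 to 40.9 in COLO357 and 7.01 to 33.3 in SUIT2. JAM3, a junctional adhesion molecule, was higher in PANC1 than in COLO357 by 4.71 (edgeR adjusted p = 1.81e-14), against the direction of F11R.

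Of 17 other claudin genes, 12 stayed under 1 CPM in all 18 libraries, and CLDN2 and CLDN10 were the ones above 10 CPM in any. CLDN2, a claudin that forms cation pores, was at 61.4 to 640.9 CPM in SUIT2 (median 451.7) and at most 0.501 CPM elsewhere. The lowest SUIT2 value was with KMT2D siRNA2. KMT2D siRNA1 left it at 434.0 CPM, KMT2C siRNA1, siRNA2 and siRNA3 at 469.3, 397.2 and 640.9 CPM, and control siRNA at 531.4 CPM. CLDN2 was lower with KMT2D siRNA2 than with control by -3.13 (SE 0.329, edgeR adjusted p = 1.63e-06), which rests on 1 line. CLDN10, which like CLDN2 forms ion pores, was at 16.2 to 44.1 CPM in PANC1, 48.1 to 89.8 CPM in COLO357 and 0.352 to 2.39 CPM in SUIT2.

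**Figure D4:**
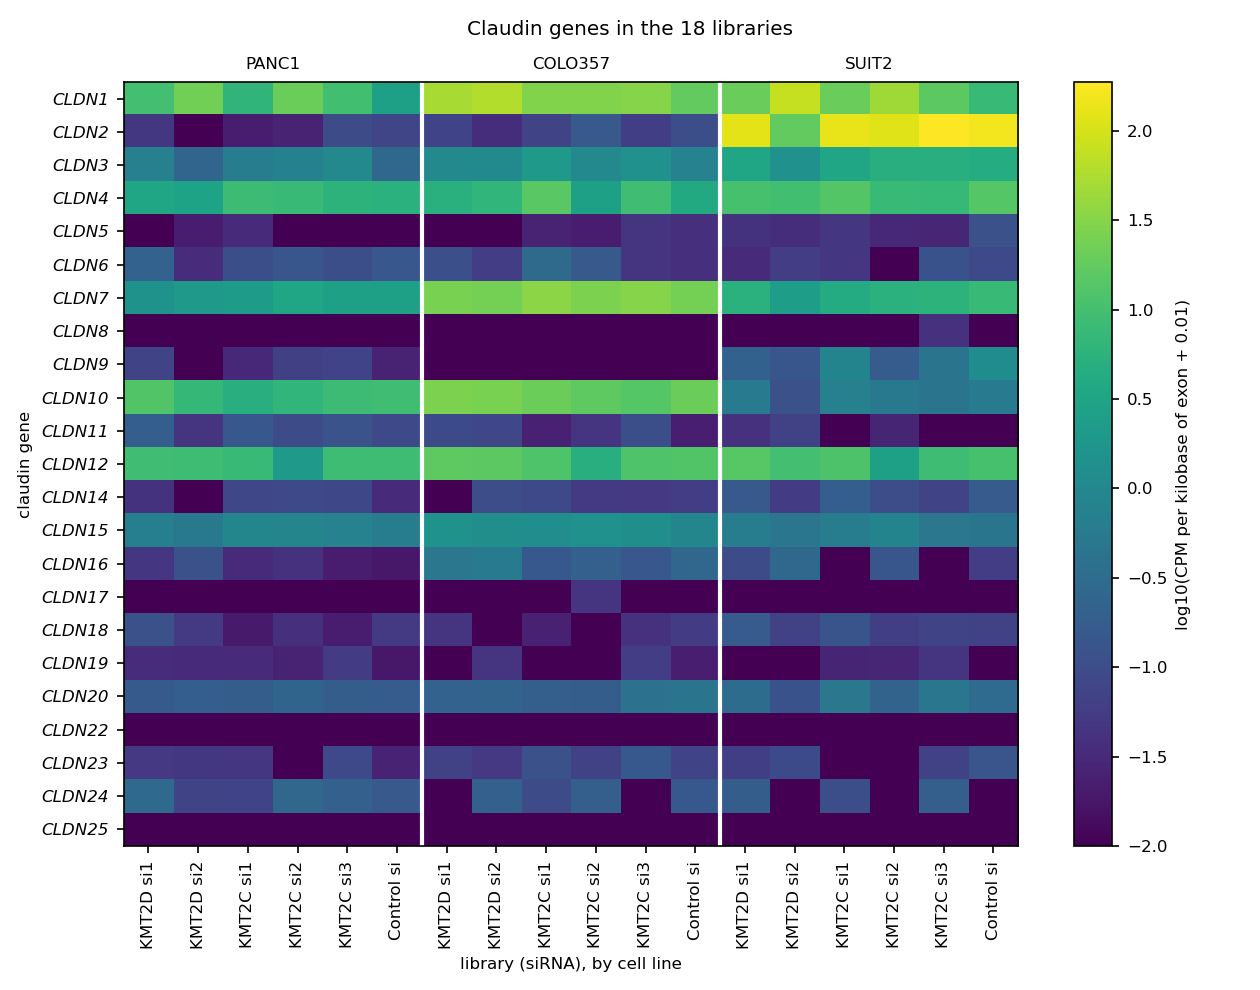
Claudin genes (rows) in the 18 libraries (columns, grouped by cell line; si1 is siRNA1), coloured by log10 of CPM per kilobase of exon plus 0.01, for 6 claudin members and 17 others. CLDN2 is bright in SUIT2 alone, at 61.4 to 640.9 CPM, CLDN10 in PANC1 and COLO357, and CLDN7 in COLO357.

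Few other junction genes passed the test when siRNAs were pooled by target. With KMT2D siRNA against control, 0 of 9 other claudins tested, 0 of 12 membrane proteins and 0 of 22 plaque and polarity genes were called by edgeR, with 2, 4 and 3 of them at an unadjusted p under 0.05, where 1.2% of all genes were called. Of 17 adherens junction and desmosome genes, NECTIN4, a nectin adhesion molecule, fell by 1.93 on the log2 scale (SE 0.466, edgeR adjusted p = 0.0413). It was at 2.28 and 2.32 CPM with KMT2D siRNA1 and siRNA2 in COLO357, against 5.42 CPM with control siRNA, and at 0.226 and 0.0441 CPM in SUIT2, against 1.23 CPM. PANC1 libraries held at most 1 count of it. NECTIN4 was also low in SUIT2 with KMT2C siRNA1, siRNA2 and siRNA3, at 2, 3 and 11 counts, against 27 with control siRNA. In COLO357 it was at 84.1% to 95.5% of control with KMT2C siRNA. With KMT2C siRNA, 0 genes of these 4 lists were called by edgeR, with 1, 1, 1 and 2 at an unadjusted p under 0.05, where 0.281% of all genes were called. The counts of other tools were not taken for these lists.

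With single siRNAs, calls in these lists came mainly from KMT2D siRNA2, where 8.92% of all genes were called. Of the 9 other claudins tested 1 was higher and 2 were lower, of the 12 membrane proteins 2 and 1, of the 22 plaque and polarity genes 1 and 1, and of the 17 adherens junction and desmosome genes 0 and 2. CLDN2 was lower, as given above. CLDN16 rose by 1.89 (edgeR adjusted p = 0.0252) on 9, 46 and 21 counts with KMT2D siRNA2 in PANC1, COLO357 and SUIT2, against 1, 19 and 4 with control siRNA. CLDN9 fell by 2.90 (0.0467), which rests on SUIT2, with 6 counts against 54 with control siRNA. MARVELD2 (tricellulin, a protein of tricellular contacts) rose by 0.81 (edgeR adjusted p = 0.0104) and LSR, which recruits it there, by 0.70 (0.0424). JAM3 fell by 1.08 (0.00128), AFDN (afadin, which links nectins to actin) by 1.00 (0.000313), the scaffold MPDZ by 0.88 (0.0058) and NECTIN4 by 2.03 (0.0206).

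With KMT2C siRNA2, 1 membrane protein was higher and 1 plaque and polarity gene lower, where 5.81% of all genes were called. MARVELD2 rose by 0.90 (edgeR adjusted p = 0.0063), a call lost without the library labelled PANC1 KMT2C siRNA2 (0.77, edgeR adjusted p = 0.0622). The polarity gene PARD6B fell by 0.80 (edgeR adjusted p = 0.0186) with KMT2C siRNA2 and rose by 1.11 (0.00104) with KMT2D siRNA2. Without the same library the KMT2C siRNA2 value of PARD6B was -0.87 (edgeR adjusted p = 0.0603). With KMT2C siRNA1, AMOTL1, an angiomotin family member, fell by 0.81 (edgeR adjusted p = 0.0131), where 1.2% of all genes were called, and with KMT2C siRNA3 and KMT2D siRNA1 0 genes of these 4 lists were called by edgeR, where 0.623% and 4.02% of all genes were. At an unadjusted p under 0.05 there were 0, 1, 1 and 1 with KMT2C siRNA3 and 1, 3, 5 and 3 with KMT2D siRNA1, in the order of claudins, membrane proteins, plaque and polarity, and adherens genes.

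Among 21 transcription factors and splicing regulators known to act on junction genes, 0 were called by edgeR with KMT2D or KMT2C siRNA pooled, and 3 and 1 had an unadjusted p under 0.05, where 1.2% and 0.281% of all genes were called. ESRP2, an epithelial splicing factor, fell by 1.00 with KMT2D siRNA1 (edgeR adjusted p = 0.00761), the 1 call of the list, where 4.02% of all genes were called. With KMT2C siRNA2, ESRP1 fell by 1.12 (edgeR adjusted p = 0.00382) and GRHL1, a grainyhead factor, by 1.02 (0.0383), the 2 calls of the list, where 5.81% of all genes were called. Without the library labelled PANC1 KMT2C siRNA2, ESRP1 was still called (-1.10, edgeR adjusted p = 0.0059) and GRHL1 was not (-1.09, 0.0827). Against the mean of KMT2C siRNA1 and siRNA3, where 5.51% of all genes were called, PARD6B (-0.90, edgeR adjusted p = 0.00362) and ESRP1 (-0.76, 0.0285) were lower with KMT2C siRNA2, also without that library (-0.96 and -0.74, edgeR adjusted p = 0.0239 and 0.046).

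Between the KMT2D siRNAs, where 11.3% of all genes were called, siRNA2 minus siRNA1 was called for 1 of 9 other claudins, 2 of 12 membrane proteins, 3 of 22 plaque and polarity genes, 3 of 17 adherens junction and desmosome genes and 4 of 21 transcription factors and splicing regulators. CLDN2 (-2.75, edgeR adjusted p = 5.51e-06), JAM3 (-0.90, 0.00438), MPDZ (-0.88, 0.00479) and AFDN (-0.90, 0.000616) were lower with siRNA2 than with siRNA1. LSR (0.96, edgeR adjusted p = 0.00523), PARD6B (0.96, 0.00269), SYMPK (0.48, 0.037) and the desmosomal genes PKP2 (0.61, 0.0207) and DSC2 (0.54, 0.0491) were higher. The 4 regulators were higher too, ESRP2 (0.75, edgeR adjusted p = 0.0252), HNF4A (1.43, 0.0286), GRHL2 (1.02, 0.0354) and ZEB1 (0.64, 0.0469), of which ZEB1 is known as a repressor of epithelial genes. The GRHL2 value rests on SUIT2, with 1980 and 3428 counts for KMT2D siRNA1 and siRNA2. PANC1 and COLO357 libraries held at most 4 counts of GRHL2.

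Between KMT2C and KMT2D siRNA, where 5.17% of all genes were called, AFDN was higher with KMT2C siRNA (0.59, edgeR adjusted p = 0.0455), and PERP (-0.53, 0.0448), CLDN16 (-1.79, 0.0186) and TP63 (-1.17, 0.0288) were lower. These were the calls of the 5 lists. Without the library labelled PANC1 KMT2C siRNA2, AFDN was no longer called (0.52, edgeR adjusted p = 0.0755).

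Across the 18 libraries, with each line's mean removed, the members did not vary as a block. Pearson's r between members ran from -0.60 (CLDN18 and TJP1) to 0.60 (CLDN3 and CLDN7) over 36 pairs. The genes most like CLDN1 were CCDC93 (r = 0.935), ZC3H11A (0.929), WSB1 (0.916), GARS1 (0.903) and DIP2C (0.888). For CLDN12 these were DPP8 (r = 0.977) and MTPN (0.976), and for TJP1 PHACTR4 (0.940) and FAM222B (0.939). The values of a library share its depth and siRNA, so they are descriptions only. The highest r for the other members was 0.839 for CLDN3 (PLEKHM2), 0.849 for CLDN4 (LIF), 0.874 for CLDN7 (KCTD15), 0.735 for CLDN18 (RAPGEF5), 0.840 for OCLN (ZNF264) and 0.882 for F11R (PLGRKT).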

How the data were processed

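Per the labels' protocols, ribosomal RNA was depleted and stranded total RNA libraries were read as paired ends. FastQC, TopHat2, HTSeq, edgeR and the build hg19 are named, without versions, in the submitters' processing notes. The sources used here state neither strand setting nor annotation release. Each library came as 1 deposited table of whole-number counts by Ensembl gene identifier. Entries naming no gene (32.98% to 53.39% of read pairs) were left out. Symbols came by identifier from a reference list of gene names, and from GENCODE v29 where that list gave none.

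Counts were tested with edgeR 4.0.16 in R 4.3.3 (TMM, robust quasi-likelihood F test, low-count filter with minimum count 10 and minimum total 15, Benjamini-Hochberg adjustment over 21028 genes, calls at 0.05). All 18 libraries entered each fit, with terms for cell line and target, for cell line and siRNA, or for 9 groups of line by target. Each SE was taken as the size of the log2 estimate divided by the root of its F. Line-centred log2 CPM used a prior count of 2. Scripts were tested on simulated data. The spread between libraries exceeds counting error, and the SEs come from fits that include this spread. Intervals are not given. Among 12 pairs of libraries of 1 group and line, none was a copy of the other (chi-square per gene 26.9 to 143). Pairs across groups or lines were not compared, which leaves out the control libraries. The labels do not state separate cultures, so the p-values reflect the spread among these libraries and siRNAs, which may be technical. The cell line is the block in each fit, and replicate numbers in accession order pair nothing else.

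Alternatives were RLE factors, no filter, DESeq2 1.42.0, and leaving out each library, siRNA or line. Limma 3.58.1 with siRNA as random block, and a fit with no cell line term, were run for the pooled target comparisons only. The members, lists and tests were chosen with earlier results of these data known. All 9 members are named. By rule, list genes called at 0.05 are named (at most the 6 smallest p per list and comparison). Between the lines the lists are given as counts with examples chosen after their values were seen. Marker list calls are named only for epithelial markers with KMT2D siRNA1. Named too are and the genes of highest r (5 for CLDN1, 2 for each other member; 1 is printed where the text says the highest). Promoter windows are RefSeq's, of GRCh38.p14, not the authors' build.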

Additional observations from a re-analysis of the deposited data

Results flagged for a closer look

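Dixon's gap test was made in 45 groups, each member's CPM among the 6 libraries of a line and its log2 difference from the line's control among the 6 KMT2D and the 9 KMT2C siRNA libraries. In 4 groups 1 library stood apart, where chance alone flags about 1 group in 20. CLDN12 was at 13.4 CPM in PANC1 and 32.3 CPM in COLO357 with KMT2C siRNA2, the lowest of the 6 libraries of each line. TJP1 was at 247.2 CPM in COLO357 with KMT2D siRNA1, also the lowest of its line. CLDN18 was at 0.409 CPM in PANC1 with KMT2D siRNA1, the highest of the line, on 9 counts. The SUIT2 values of CLDN12 with KMT2C siRNA2 (17.9 CPM) and of TJP1 with KMT2D siRNA1 (235.1 CPM) were the lowest of that line as well, but did not stand apart by this test.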

How the results depend on the processing

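Of the members' own values, CLDN12 with KMT2C siRNA2 kept its call in all 30 alternatives run for it (-2.09 to -1.69). TJP1 between the KMT2D siRNAs did so in all 29 (0.78 to 1.06), and CLDN7 and OCLN between PANC1 and COLO357 in all 29 each. Limma and the fit with no cell line term were not among these alternatives. The library labelled PANC1 KMT2C siRNA2 was left out both as a single library and as a setting of its own, so that alternative is counted more than once. Signs changed for values near 0 and for TJP1, whose pooled KMT2D value was 0.19 without KMT2D siRNA1. These were TJP1 with KMT2D siRNA2 at -0.072 and CLDN12 with KMT2C siRNA1 at 0.063 without PANC1, F11R for COLO357 minus SUIT2 at -0.025 without KMT2C siRNA1, and CLDN12 with KMT2C siRNA3 at 0.15 without the 3 libraries with over 20% of read pairs in no annotated feature, an alternative chosen after the data were seen. Leaving out 1 library at a time gave -0.15 to 0.056 for CLDN12 with KMT2C siRNA1 and -0.062 to 0.13 for F11R. The cause was not tested.

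The count of all genes called moved most. For KMT2D siRNA against control (253) it was 657 with no filter, 660 by DESeq2, 77 by limma, 46, 88 and 30 without PANC1, COLO357 and SUIT2, 1142, 504 and 136 without KMT2D siRNA1, KMT2D siRNA2 and KMT2C siRNA3, and 36 to 320 leaving out 1 library at a time. For KMT2C siRNA against control (59) it was 270, 217, 26, 3, 9 and 6 in the same order down to the lines, 96 and 117 without KMT2D siRNA1 and siRNA2, 37 without the 3 libraries named above, and 7 to 74 leaving out 1 library. For KMT2C against KMT2D siRNA (1087) it was 1762, 1939, 288, 96, 283 and 109 in that order, 1839, 1651, 587 and 369 without KMT2D siRNA1, KMT2D siRNA2, KMT2C siRNA1 and KMT2C siRNA3, 342 without the 3 libraries, and 672 to 1225 leaving out 1 library. Of the single libraries, leaving out the SUIT2 control gave the lowest count in both comparisons with control. With no replicate block, the cell line term left out, 0, 1 and 0 genes were called in these 3 comparisons. The lines are the only pairing, and RLE factors moved none of these counts past 1.5 times. Leaving out 1 library gave 312 to 1038 genes with KMT2D siRNA1 (845), 1140 to 2120 with KMT2D siRNA2 (1875), 59 to 365, 537 to 1530 and 50 to 184 with KMT2C siRNA1, siRNA2 and siRNA3 (252, 1222 and 131), 1171 to 2651 between the KMT2D siRNAs (2386) and 500 to 1431 for KMT2C siRNA2 against the others (1158).

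Members called changed as follows, where tests of KMT2C siRNA against control include CLDN1 and share the control libraries it was picked on. With no filter there were 1 with KMT2C siRNA pooled, 3 other than CLDN1 for KMT2C against KMT2D siRNA, 1 other than CLDN1 with KMT2D siRNA2, 2 and 1 with KMT2C siRNA1 and siRNA3, 2 other than CLDN1 between the KMT2D siRNAs and 3 for KMT2C siRNA2 against the mean of the others. DESeq2 gave 1 with KMT2C siRNA pooled, 1 each with KMT2C siRNA1 and siRNA3 and 3 for KMT2C siRNA2 against the others. Without PANC1 or SUIT2, KMT2C siRNA2 had 1, and without SUIT2, KMT2D siRNA1 had 0 other than CLDN1. Without COLO357 there were 1 each with KMT2C siRNA1 and siRNA3, 2 other than CLDN1 between the KMT2D siRNAs and 2 for KMT2C siRNA2 against the others. Without KMT2D siRNA1, KMT2C against KMT2D siRNA had 1, and without KMT2D siRNA2 it had 1, KMT2D siRNA pooled 1 and KMT2C siRNA2 against the others 2. Leaving out 1 library gave 0 to 1 for KMT2C siRNA1, KMT2C siRNA3, KMT2D siRNA1, KMT2D siRNA2 and KMT2C against KMT2D siRNA, and 1 to 2 for KMT2C siRNA2 against the others and, CLDN1 apart, between the KMT2D siRNAs. For PANC1 minus COLO357, PANC1 minus SUIT2 and COLO357 minus SUIT2 it gave 6 to 7, 5 to 8 and 4 to 5 members, against 6, 6 and 4. CLDN12 was called for PANC1 minus COLO357 in 6 of its alternatives, no filter, DESeq2 and leaving out KMT2C siRNA2, the PANC1 KMT2C siRNA3 library, or the COLO357 or SUIT2 KMT2C siRNA2 library.

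CLDN18 and, in PANC1 and COLO357, CLDN3 had too few counts for small differences to be detectable, and 1 control library per line limits every value within a line.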
